A study of Homo sapiens with 6 samples.

Results

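Transcripts of 9 genes that set the acid-base balance of a cell were followed in RCC4 cells, out of 60683 counted genes: the carbonic anhydrases CA9, CA12, CA2 and CA8, the lactate carriers SLC16A1 and SLC16A3, their chaperone BSG, and the bicarbonate carriers SLC4A7 and SLC4A2. These genes were chosen by name with their measured ATF4 KO and parental levels already known, CA9 being among the genes furthest apart between the groups. Their differences are therefore described with errors and without p-values, the number of them called in the fit over all genes is given only beside the share of all genes called, and they give no independent support for a change of the pathway. RCC4 is a human clear cell renal carcinoma line without functional VHL. ATF4 KO RCC4 cells (n = 3 libraries) were compared with parental RCC4 cells labelled wild type (n = 3), and poly(A) RNA was sequenced with a stranded kit. No treatment is given for either group, and both lack VHL function. The labels give neither the means of the ATF4 knockout, nor a clone or pool, nor whether the libraries come from separate cultures, so p-values measure only the spread between these libraries, which may be technical.

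Cells that ferment glucose export lactate together with a proton through the monocarboxylate carriers MCT1 (SLC16A1) and MCT4 (SLC16A3), which reach the plasma membrane with the chaperone basigin (BSG). Carbonic anhydrases interconvert carbon dioxide and bicarbonate: CA9 and CA12 do so on the outer face of the membrane and CA2 in the cytosol, while CA8 lacks the activity. Bicarbonate brought in by SLC4A7 (NBCn1) neutralises acid in the cell, whereas SLC4A2 (AE2) exchanges bicarbonate for chloride and usually moves it out, so not every gene of the group extrudes acid. In clear cell renal carcinoma the loss of VHL stabilises the hypoxia-inducible factors (HIF), and CA9 is a well known HIF target and tumour marker.

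Total counts ranged from 41002611 to 46755358 per library, and a count of 0 in a library allowed a level of up to 0.0642 to 0.0732 CPM (counts-per-million of the library total; 3 counts, counting error only). All levels given are CPM further scaled by TMM factors. The targeted gene ATF4 had 210, 223 and 209 CPM in ATF4 KO cells, against 239, 251 and 243 CPM in parental cells. Its log2 fold change was -0.19 (SE 0.029). Around ATF4 on chromosome 22, the 50 closest tested genes on each side were lower too, their median being -0.25 on that scale. The lower level of ATF4 was thus not set apart from its surroundings, and its cause was not tested. A level of reads over ATF4 is also no check of a change in its coding sequence. Of 10 renal carcinoma epithelial markers, 9 reached 10 counts in a library, and LRP2 had at most 1 count. The 10 summed to 7160 to 7350 CPM in ATF4 KO cells and 6400 to 6780 CPM in parental cells, most of it VIM (means 5170 and 4810 CPM). Of 9 tested markers, 3 were higher (CDH6, VIM and NDUFA4L2) and 3 lower (PAX8, KRT18 and KRT19), beside 21.2% and 20.8% of all tested genes. The median of the neighbouring genes was 0.29 for CDH6 (log2 fold change 0.36), 0.12 for VIM (0.10) and -0.02 for NDUFA4L2 (0.77). Leukocyte markers summed to 0.581 to 0.634 CPM in ATF4 KO cells and 0.273 to 0.475 CPM in parental cells, with 3 of 6 at 0 in every library. Endothelial markers summed to 0.0846 to 0.172 CPM in ATF4 KO cells and 0.119 to 0.182 CPM in parental cells. Fibroblast and mural markers summed to 47.1 to 49.6 CPM in ATF4 KO cells and 57.8 to 66.5 CPM in parental cells, most of it ACTA2, and 2 of 3 tested markers were lower (ACTA2 and PDGFRB). In bulk libraries, fewer cells that express a gene and less RNA of it per cell cannot be told apart.

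Because several of these genes are known or proposed HIF targets, the 250 bases upstream of their RefSeq transcript starts were searched on both strands for the HIF core letters ACGTG and GCGTG, and for TGATGNAA, the composite letters read by ATF4 with a CEBP partner. RefSeq windows (GRCh38.p14) were matched for 6 of the 9 genes, 15 windows in all, and for SLC16A1 none was matched. The letters TGATGNAA were in 0 of these 15 windows and in 3.14% of all 35116 RefSeq windows. The letters ACGTG were in 18.5% of all windows, and either core in 43.2%. The stretches below are shown because they hold the single core match of CA9 and of CA12, the ACGTG matches of SLC16A3 and BSG, and 1 of the ACGTG sites of SLC4A2, which hardly differed, with each match in capitals as read on the printed strand. Further matches lie outside them: windows of BSG hold up to 6 core matches, of SLC16A3 up to 3 and of SLC4A2 up to 7. They lie at chr9:35673897-35673926 on the plus strand (CA9), chr15:63382064-63382093 on the minus strand (CA12), chr17:82228968-82228997 on the plus strand (SLC16A3), chr19:572391-572420 on the plus strand (BSG) and chr7:151062421-151062450 on the plus strand (SLC4A2), each inside the outer bounds of its gene in GENCODE 29.
CA9: ctcgtttccaatgCACGTacagcccgtaca
CA12: ggcggatctcaccCACGCctgccagcagct
SLC16A3: gcggtgACGTGcgcgggggACGTGccgcgc
BSG: gcaacgccgggtCACGTGcgccgccgcccg
SLC4A2: acgccccctgccCACGTGccacccaggccc
CA9 has a single match, starting at position -18 from the RefSeq start, and CA12 a single match of the GCGTG kind at position -234. SLC16A3 has the 2 ACGTG matches at positions -68 and -55 in 1 of its 5 windows. BSG, lower in ATF4 KO cells, and SLC4A2 both hold the palindrome CACGTG, which counts as a match on each strand. Core letters were thus present upstream of genes that were higher, lower and nearly level, and a match is a description of the letters only.

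Among the carbonic anhydrases, CA9 stood far apart between the groups. CA9 (ENSG00000107159, chromosome 9, 35673856 to 35681159, plus strand, GRCh38) was at 93.7, 101 and 96.1 CPM in ATF4 KO cells, against 16.3, 17.2 and 16.2 CPM in parental cells. The lowest ATF4 KO library lay far above the highest parental one, and the spread within each group was small. The means were 96.9 ± 3.63 CPM in ATF4 KO cells and 16.6 ± 0.554 CPM in parental cells (SD, n = 3 each), a 5.84-fold difference (log2 fold change 2.55, SE 0.046). This was the second highest log2 fold change among the 9378 tested genes that averaged 10 CPM or more, and rank 15 from the top among all 15321 tested genes. Of the 1670 exon bases of CA9, 643 also lie in exons of ARHGEF39 on the opposite strand, a guanine nucleotide exchange factor gene. ARHGEF39 had 254, 293 and 334 counts in ATF4 KO cells, against 140, 112 and 171 counts in parental cells. The strand setting used for counting is not given in the sources used here, so reads of the shared bases may have been left out for both genes and the part of ARHGEF39 in this was not tested. CA9 itself had 3854, 4688 and 4547 counts in ATF4 KO cells, against 709, 757 and 683 counts in parental cells.

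CA12, the other membrane-bound enzyme, was also higher in every ATF4 KO library. CA12 (ENSG00000074410, chromosome 15, 63321378 to 63382161, minus strand) was at 39.2, 46.3 and 42.3 CPM in ATF4 KO cells, against 27.2, 26.8 and 26.9 CPM in parental cells, which is 1.58-fold (log2 fold change 0.66, SE 0.053). The ATF4 KO libraries spread more widely (SD 3.59 CPM) than the parental ones (SD 0.233 CPM), with no overlap. The cytosolic enzyme CA2 (ENSG00000104267) was at 49.9, 48.0 and 46.3 CPM in ATF4 KO cells, against 39.0, 42.2 and 41.6 CPM in parental cells (1.17-fold, log2 fold change 0.23, SE 0.047). The groups did not overlap for CA2, although the gap between them was narrow. CA8 (ENSG00000178538) had 4, 0 and 1 counts in the ATF4 KO libraries and 0 in each parental library, too few to test or to give a fold change. CA8, which lacks enzyme activity, was thus at or under the limit of detection in all but 1 library.

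**Figure D1:**
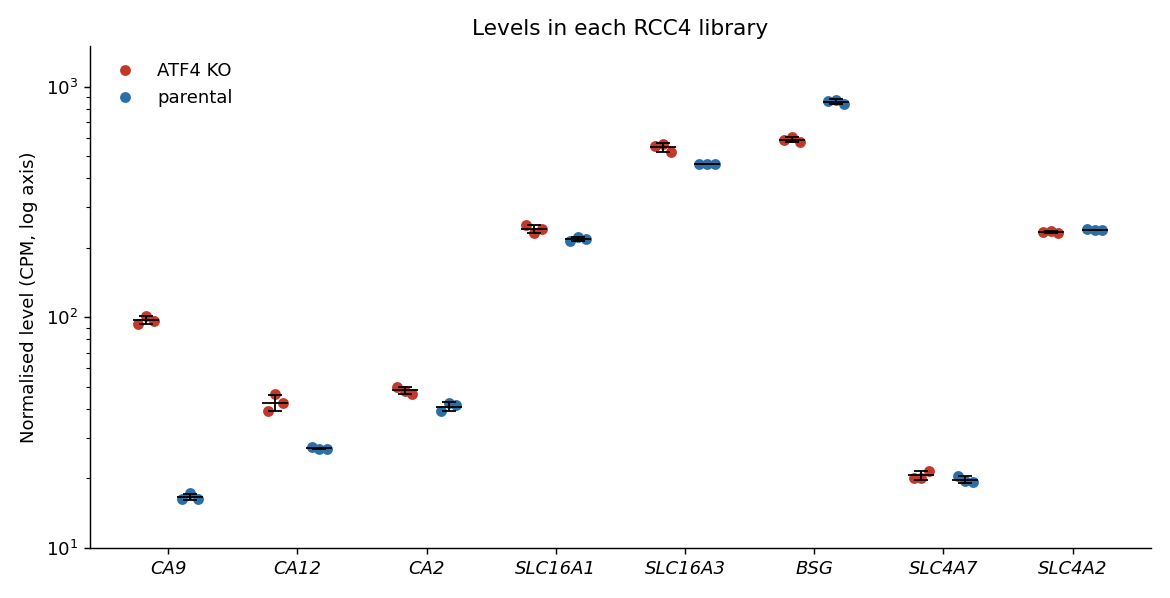
Normalised CPM of 8 genes on a log axis, library by library, with ATF4 KO libraries in red to the left of parental libraries in blue, and black bars for the mean and SD (n = 3 each). CA9 averages 96.9 CPM in ATF4 KO cells and 16.6 CPM in parental cells, and BSG averages 589 CPM in ATF4 KO cells and 860 CPM in parental cells. CA8 is left out because it had at most 4 counts.

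The make-up of the carbonic anhydrase transcripts differed as well. On the scale of CPM per kilobase of exon (GENCODE 29 exons), all listed carbonic anhydrases summed to 87.2, 91.5 and 87.2 in ATF4 KO cells, against 34.1, 36.5 and 35.8 in parental cells, a 2.5-fold difference. Nearly all of this came from the 6 tested ones, since the others had at most 4 counts in a library. CA9 made up 64.3, 66.0 and 66.0% of this sum in ATF4 KO cells, against 28.6, 28.2 and 27.2% in parental cells. CA9 was the most abundant carbonic anhydrase per kilobase in ATF4 KO cells, whereas CA2 was in parental cells. CA2 made up 25.5 ± 1.21% of the sum in ATF4 KO cells and 54.3 ± 0.498% in parental cells (SD, n = 3 each), so its share was lower although its level was higher. CA12 made up 6.57 ± 0.395% in ATF4 KO cells and 10.4 ± 0.456% in parental cells. The mitochondrial enzyme CA5B, the inactive CA11 and the cytosolic CA13 together stayed a small part of the sum, with CA5B at 1.18% in ATF4 KO cells and 3.47% in parental cells. These shares carry the same values that chose the genes and were not tested.

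**Figure D2:**
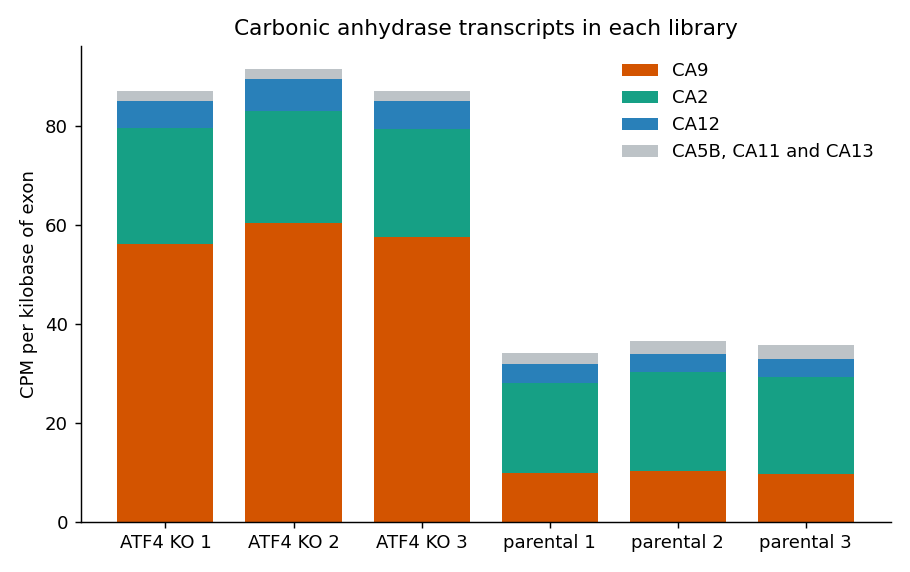
Stacked CPM per kilobase of exon of the 6 tested carbonic anhydrases in each library, with the 3 ATF4 KO libraries to the left of the 3 parental libraries. The stacks reach 87.2 to 91.5 in ATF4 KO cells and 34.1 to 36.5 in parental cells, and CA9 (orange) accounts for most of the difference, at 58.0 in ATF4 KO cells and 9.93 in parental cells on average.

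The lactate carriers were slightly higher in ATF4 KO cells, while their chaperone was lower. SLC16A3, the carrier linked to lactate export in glycolytic cells (ENSG00000141526, chromosome 17, 82228397 to 82261129, plus strand), was at 554, 563 and 519 CPM in ATF4 KO cells, against 463, 460 and 460 CPM in parental cells (1.18-fold, log2 fold change 0.24, SE 0.029). SLC16A1, which carries lactate and pyruvate in either direction (ENSG00000155380, chromosome 1, 112911847 to 112957013, minus strand), was at 252, 232 and 241 CPM in ATF4 KO cells, against 214, 222 and 219 CPM in parental cells (1.10-fold, log2 fold change 0.14, SE 0.029). Neither carrier's groups overlapped, but for SLC16A1 the lowest ATF4 KO library was only a little above the highest parental one. BSG (ENSG00000172270, chromosome 19, 571277 to 583493, plus strand) was at 589, 604 and 574 CPM in ATF4 KO cells, against 866, 878 and 837 CPM in parental cells. It was thus 1.46-fold lower in ATF4 KO cells (log2 fold change -0.55, SE 0.028), with no overlap between the groups.

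Set against each other per kilobase of exon, the carriers and the chaperone diverged. SLC16A1 and SLC16A3 summed to 109, 106 and 103 CPM per kilobase in ATF4 KO cells, against 91.8, 93.0 and 92.5 in parental cells. Divided by the CPM per kilobase of BSG, this sum was 0.703, 0.668 and 0.682 in ATF4 KO cells, against 0.402, 0.402 and 0.42 in parental cells, a ratio 1.68 times as large. Per kilobase, BSG was above both carriers together in every library, whereas in plain CPM the carriers together exceeded BSG in every ATF4 KO library and were below it in every parental one. The balance between the carriers hardly differed: SLC16A3 was 56.5, 58.9 and 56.0% of the pair in ATF4 KO cells, against 56.1, 55.0 and 55.3% in parental cells, and these ranges overlapped. Exons of SLC16A3 share 482 of 8995 bases with CSNK1D, those of SLC16A1 share 175 of 5312 bases with SLC16A1-AS1 and those of BSG share 140 of 3797 bases with BSG-AS1, all on the opposite strand, and their part in these values was not tested.

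**Figure D3:**
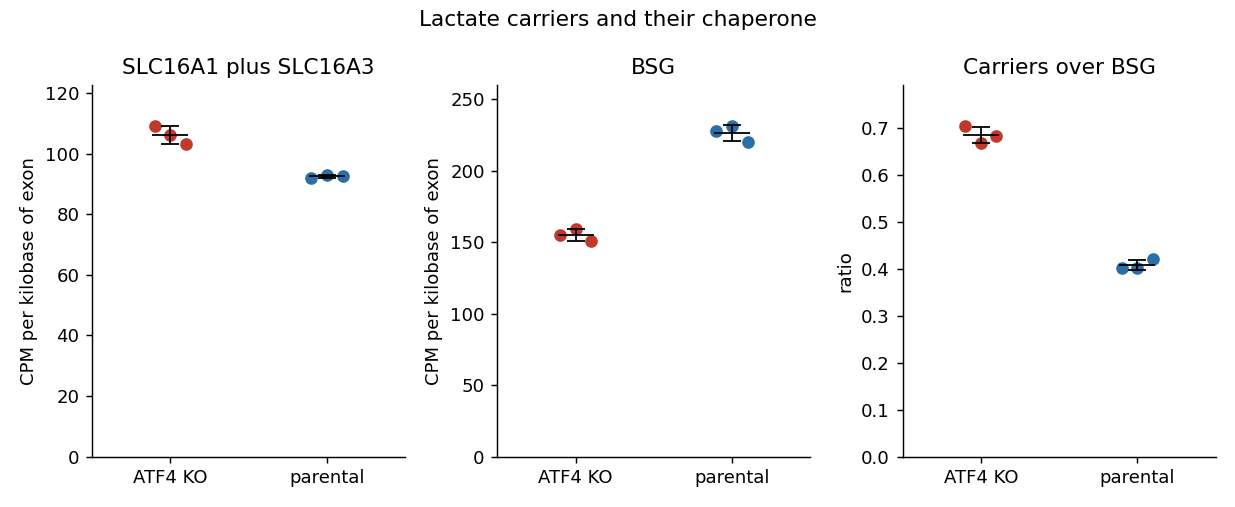
CPM per kilobase of exon of SLC16A1 plus SLC16A3 (left), of BSG (middle) and their ratio (right) in each library, with ATF4 KO in red to the left of parental in blue, black bars for the mean and SD (n = 3 each), and axes from 0. The carriers sum to 106 in ATF4 KO cells and 92.4 in parental cells, BSG is at 155 in ATF4 KO cells and 227 in parental cells, and the ratio is 0.684 in ATF4 KO cells and 0.408 in parental cells.

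The bicarbonate carriers of the group were nearly level. SLC4A7, the sodium-coupled importer (ENSG00000033867, chromosome 3, 27372721 to 27484420, minus strand), was at 20.1, 20.1 and 21.6 CPM in ATF4 KO cells, against 20.5, 19.4 and 19.3 CPM in parental cells, and the groups overlapped (log2 fold change 0.06, SE 0.062). SLC4A2, the chloride-bicarbonate exchanger (ENSG00000164889, chromosome 7, 151057210 to 151076527, plus strand), was at 235, 237 and 231 CPM in ATF4 KO cells, against 240, 238 and 238 CPM in parental cells. Every ATF4 KO library was below every parental one, but the difference was small, with a log2 fold change of -0.03 and an SE of 0.028. SLC4A2 was far more abundant than SLC4A7 on either scale, with a ratio of SLC4A7 to SLC4A2 of 0.0694 ± 0.00375 in ATF4 KO cells and 0.0652 ± 0.00192 in parental cells (SD, n = 3 each, CPM per kilobase).

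Across the group, edgeR's quasi-likelihood test called 5 of the 8 tested genes higher in ATF4 KO cells (CA9, CA12, CA2, SLC16A1 and SLC16A3) and 1 lower (BSG). Of all 15321 tested genes, 21.2% were called higher and 20.8% lower, and since the members were listed with this contrast known, nothing is read from their count. Every ATF4 KO library lay above every parental library for 5 of the 8 genes and below for 2 (BSG and SLC4A2), beside 25.3% of all tested genes above and 24.3% below. The median log2 fold change of the 8 genes was 0.19, beside 0.01 over all tested genes. CA9 aside, the differences were modest. Each value was also taken relative to the median of the nearest 50 tested genes on either side of it along the chromosome. The medians around the 8 genes were small, between -0.01 and 0.10 on the log2 scale, and the log2 fold change relative to them was 2.44 for CA9, 0.61 for CA12, 0.18 for CA2, 0.17 for SLC16A3, 0.09 for SLC16A1 and -0.59 for BSG.

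**Figure D4:**
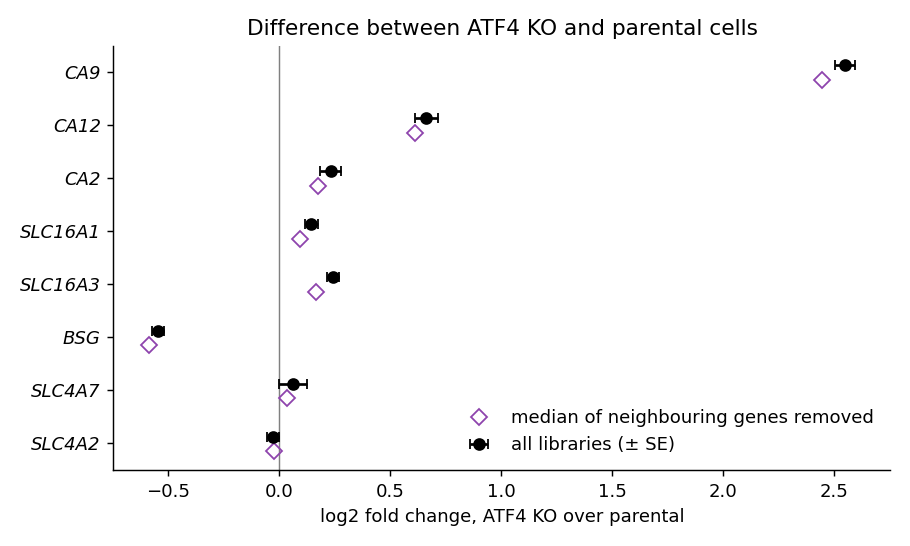
log2 fold change of ATF4 KO over parental cells for 8 genes, with black points and SE bars from the edgeR fit of all 6 libraries and open diamonds for the fit with the median of neighbouring genes removed. CA9 lies at 2.55 (2.44 with the neighbours' median removed), BSG at -0.55 (-0.59), and SLC4A7 and SLC4A2 lie near 0.

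Ranked by CPM per kilobase, the order of the genes also differed between the groups. In ATF4 KO cells it was BSG (155), SLC16A3 (60.6), CA9 (58.0), SLC16A1 (45.5), SLC4A2 (30.8), CA2 (22.6), CA12 (5.83), SLC4A7 (2.14) and CA8 (0.00682). In parental cells it was BSG (227), SLC16A3 (51.3), SLC16A1 (41.2), SLC4A2 (31.5), CA2 (19.3), CA9 (9.93), CA12 (3.68), SLC4A7 (2.05) and CA8 (0). CA9 stood above SLC16A1, SLC4A2 and CA2 in ATF4 KO cells and below all of them in parental cells. SLC16A3 and CA9 overlapped between libraries in ATF4 KO cells and so are not ordered there, while the ranges of all other neighbours in either order were separate. The length used counts every annotated exon base of a gene once over all its transcripts, 8995 bases for SLC16A3 and 1670 for CA9. The order between genes rests on these lengths, and other exon lengths were not tested. The exon length of CA9 includes the bases shared with ARHGEF39, so its level per kilobase would be understated if their reads were left out.

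The protein-coding genes whose levels over the 6 libraries were most like those of CA9, among 12384 compared by Euclidean distance of centred log2 CPM, were SFN (distance 0.202), GALNT13 (0.459), RGS22 (0.574), UNC13D (0.598) and SSBP2 (0.707). CA9 varied little within the groups, so this distance mostly ranks closeness to its difference between ATF4 KO and parental cells. That is the contrast already known when CA9 was chosen, so the list is a description and gives no independent support. SFN, which encodes the 14-3-3 sigma protein, averaged 6.44 CPM in ATF4 KO cells and 1.10 CPM in parental cells. The secretory granule protein UNC13D averaged 7.06 CPM in ATF4 KO cells and 1.21 CPM in parental cells. All 5 were far less abundant than CA9, and RGS22 averaged only 0.323 CPM in ATF4 KO cells and 0.0152 CPM in parental cells. The log2 CPM used here hold a prior count of 2, which shrinks the differences of genes as low as RGS22, so its fitted log2 fold change of 4.17 (SE 0.78) was well above the 2.55 of CA9. RGS22 passed the filter on low counts only through the ATF4 KO libraries, and its fold change is to be read with that limit.

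Beyond these genes, 94 others of pH regulation, lactate handling and HIF were listed by family, of which 51 could be tested. Of the 51, 9 were higher in ATF4 KO cells, 16 were lower and 26 did not pass the test (edgeR, Benjamini-Hochberg adjusted p below 0.05 over all tested genes), with a median log2 fold change of -0.10. The higher calls were 17.6% of the 51 genes, beside 21.2% of all tested genes, and the lower calls 31.4%, beside 20.8%. HIF subunits and regulators, which are not pH regulators themselves, gave 4 of these higher calls and 2 of the lower calls, from 9 tested genes.

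Among the other carbonic anhydrases, only CA5B, CA11 and CA13 of 11 could be tested, and the others had at most 3 counts. None was higher in edgeR's test, at an unadjusted p below 0.05 or in DESeq2. CA5B was lower by a narrow margin, at 8.07, 9.92 and 8.88 CPM in ATF4 KO cells, against 8.99, 11.4 and 11.1 CPM in parental cells (log2 fold change -0.23, SE 0.094, edgeR adjusted p = 0.0469), and the groups overlapped. This call did not hold without ATF4 KO replicate 1 (-0.16) or 3 (-0.22) or without parental replicate 2 (-0.16) or 3 (-0.19), nor in DESeq2 (-0.23), in limma-voom (-0.22), with total counts as the only scaling (-0.20) or with no filter on low counts (-0.22), and relative to neighbouring genes of the X chromosome CA5B was at 0.03. The lower call of CA11 (-0.54) appeared only without ATF4 KO replicate 1, against a log2 fold change of -0.37 with all libraries.

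Of the other SLC16 carriers and the basigin relatives, 10 of 16 were tested, with 4 lower in edgeR's test and in DESeq2. None was higher in either tool or at an unadjusted p below 0.05. SLC16A12, a creatine carrier, was at 30.2, 27.7 and 27.8 CPM in ATF4 KO cells, against 38.5, 34.5 and 36.0 CPM in parental cells (log2 fold change -0.35, SE 0.053, edgeR adjusted p = 2.57e-07). SLC16A9, a carnitine carrier, fell by 0.34 on the log2 scale (SE 0.059) and SLC16A4, an orphan member, fell by 0.20 (SE 0.060). In each of these 3, none of which is known chiefly as a lactate carrier, the groups did not overlap. SLC16A7 (MCT2), another lactate and pyruvate carrier, was at 16.5 to 18.6 CPM in ATF4 KO cells, against 16.4 to 17.2 CPM in parental cells, and did not pass the test. SLC16A13 was at 8.95, 9.31 and 9.45 CPM in ATF4 KO cells, against 10.3, 10.3 and 10.4 CPM in parental cells. It did not pass the test (log2 fold change -0.16, edgeR adjusted p = 0.127) but was called lower relative to its neighbouring genes (-0.31). The basigin relative NPTN (neuroplastin) had a log2 fold change of -0.09 (edgeR adjusted p = 0.0598), called lower without ATF4 KO replicate 3 or parental replicate 3 (-0.11 each). NPTN was also called lower relative to its neighbouring genes (-0.19), with the stricter filter on low counts (-0.09) and with DESeq2 size factors (-0.09).

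Among the other SLC4 carriers, 4 of 8 were tested, with 3 lower in edgeR's test and 2 in DESeq2 (SLC4A4 and SLC4A8). None was higher in either tool or at an unadjusted p below 0.05. SLC4A4, the sodium bicarbonate cotransporter NBCe1 of the proximal tubule, was at 56.8, 55.2 and 59.4 CPM in ATF4 KO cells, against 78.5, 75.4 and 74.2 CPM in parental cells (log2 fold change -0.41, SE 0.039, edgeR adjusted p = 4.82e-13). SLC4A8, a sodium-driven chloride-bicarbonate exchanger, was at 2.04, 1.83 and 1.95 CPM in ATF4 KO cells, against 2.78, 3.53 and 4.61 CPM in parental cells (log2 fold change -0.91, SE 0.17, edgeR adjusted p = 9.31e-06). In both, every ATF4 KO library was below every parental one. SLC4A3, an anion exchanger, had a log2 fold change of -0.21 (edgeR adjusted p = 0.0305), a call that did not hold without ATF4 KO replicate 1 or 3 or parental replicate 2 or 3 (-0.20, -0.20, -0.19 and -0.21), nor in DESeq2 (-0.21), with total counts as the only scaling (-0.18) or with no filter on low counts (-0.20).

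None of the 4 tested SLC26 anion exchangers (SLC26A1, SLC26A2, SLC26A6 and SLC26A11) passed edgeR's test or an unadjusted p below 0.05 in either direction. DESeq2, which tests genes of lower counts too, called none lower and SLC26A7 higher, a gene with 12, 8 and 10 counts in ATF4 KO cells, against 0, 1 and 4 counts in parental cells. SLC26A2 was called lower (-0.09) only without ATF4 KO replicate 3, and SLC26A6 (-0.29) only relative to its neighbouring genes. SLC26A2 was the most abundant of the 4, at 97.6, 93.3 and 100 CPM in ATF4 KO cells, against 101, 98.6 and 106 CPM in parental cells. No proton pump or proton channel of the list of 4 (HVCN1, ATP4A, ATP4B and ATP12A, at most 1 count in any library) could be tested. Subunits of the vacuolar proton pump were not on this list, so nothing is said of them here.

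Sodium-proton exchangers moved in both directions, with 3 higher and 4 lower of 12 tested genes of the SLC9 family and its partners. SLC9A2, a plasma membrane exchanger (NHE2), was at 0.802, 1.33 and 0.655 CPM in ATF4 KO cells, against 0.161, 0.0682 and 0.142 CPM in parental cells (log2 fold change 2.89, SE 0.43, edgeR adjusted p = 1.11e-07). Its fold change was near that of CA9, but at a level of no more than 1.33 CPM in any library. SLC9A2 had 33, 62 and 31 counts in ATF4 KO cells, against 7, 3 and 6 counts in parental cells. It thus passed the filter on low counts only through the ATF4 KO libraries, and its adjusted p is to be read with that limit. The calcineurin B homologue TESC, an exchanger partner, was at 2.33, 2.69 and 1.73 CPM in ATF4 KO cells, against 1.17, 1.46 and 0.950 CPM in parental cells (log2 fold change 0.91, SE 0.21), and the scaffold NHERF1 had a log2 fold change of 0.19 (SE 0.034). SLC9B2 fell by 0.27 on the log2 scale, the Golgi exchanger SLC9A8 by 0.17 and the exchanger partner CHP1 by 0.15. Relative to their neighbouring genes, SLC9A8 (0.01) and NHERF1 (0.04) no longer passed, and SLC9A8 did not pass without parental replicate 2 (-0.14).

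In lactate and pyruvate handling, 2 of 4 tested genes were lower in edgeR's test, at an unadjusted p below 0.05 and in DESeq2, and none was higher by any of these. LDHA, which makes lactate, was by far the most abundant, at 2760, 2650 and 2580 CPM in ATF4 KO cells, against 2720, 2740 and 2830 CPM in parental cells, and did not pass the test (log2 fold change -0.05, SE 0.029). Its direction was not settled, since LDHA was called lower without ATF4 KO replicate 1 (-0.08) and in limma-voom (-0.05) and called higher relative to its neighbouring genes (0.14). LDHB, the other lactate dehydrogenase subunit, was at 9.43, 10.6 and 9.58 CPM in ATF4 KO cells, against 11.5, 13.3 and 12.2 CPM in parental cells (log2 fold change -0.32, SE 0.084, edgeR adjusted p = 0.00175). The mitochondrial pyruvate carrier subunit MPC2 fell by 0.10 on the log2 scale (SE 0.029), a call that did not hold without ATF4 KO replicate 2 (-0.08).

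Of 5 tested acid sensors, 2 were higher in edgeR's test and in DESeq2, and 3 at an unadjusted p below 0.05, the third being ASIC1. None was lower by any of these. The acid-sensing channel subunit ASIC2 was at 2.63, 2.11 and 2.16 CPM in ATF4 KO cells, against 0.874, 0.773 and 0.950 CPM in parental cells (log2 fold change 1.40, SE 0.21, edgeR adjusted p = 1.95e-07). ASIC2 was more than 2-fold higher with no overlap between the groups, though at low levels. ASIC1 had a log2 fold change of 0.18 (edgeR adjusted p = 0.071), and was called higher without parental replicate 3 (0.22).

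The HIF subunits moved in opposite directions. HIF1A was at 156, 154 and 163 CPM in ATF4 KO cells, against 130, 128 and 131 CPM in parental cells (log2 fold change 0.28, SE 0.030, edgeR adjusted p = 2.29e-11). EPAS1, which encodes HIF-2 alpha, was at 131 CPM in each ATF4 KO library, against 186, 179 and 183 CPM in parental cells (log2 fold change -0.48, SE 0.029, edgeR adjusted p = 3.07e-20). EPAS1 was above HIF1A in every parental library and below it in every ATF4 KO library in CPM. Per kilobase of exon, EPAS1 was at 17.9 to 18.0 and HIF1A at 30.0 to 31.6 in ATF4 KO cells, while in parental cells EPAS1 was at 24.6 to 25.4 and HIF1A at 24.9 to 25.4, so their order was separate only in ATF4 KO cells on that scale. Among the other 7 tested genes of this list, the HIF prolyl hydroxylases EGLN1 (log2 fold change 0.44, SE 0.050) and EGLN3 (0.21, SE 0.054) were higher. The partner subunit ARNT2 fell by 0.34 on the log2 scale (SE 0.046). ARNT was level at -0.01 with all libraries, but was called lower relative to its neighbouring genes (-0.11). VHL, whose product does not function in this line, was called higher (0.15, edgeR adjusted p = 0.0179), a call that did not hold without ATF4 KO replicate 2 (0.11) or 3 (0.11) or parental replicate 1 (0.13), nor in DESeq2 (0.14) or relative to neighbouring genes (0.115). EGLN2 was called lower without ATF4 KO replicate 3 (-0.97), against -0.56 with all libraries. In all, 4 genes of this list were higher and 2 lower of 9 tested.

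**Figure D5:**
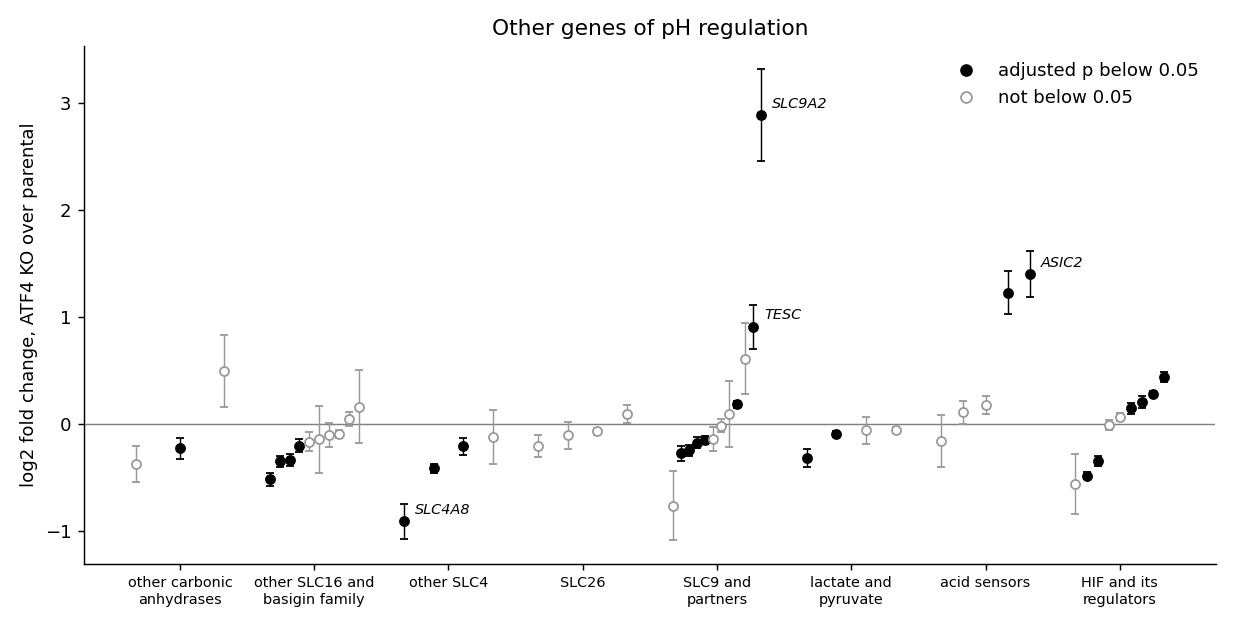
log2 fold change of ATF4 KO over parental cells (points, with SE bars from edgeR) for the 51 tested genes of pH regulation, lactate handling and HIF outside the group, by family, with filled points for adjusted p below 0.05. SLC9A2 (2.89, at no more than 1.33 CPM in any library), ASIC2 (1.40) and TESC (0.91) are among the highest of the called genes. SLC4A8 (-0.91) is the lowest, while the called SLC16 and SLC4 carriers all lie below 0.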

How the data were processed

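Raw counts per gene were deposited by the authors for 6 RCC4 libraries. According to the submitters' processing notes, bcl2fastq 2.20, cutadapt, STAR and HTSeq were used with GRCh38. Neither the annotation release nor the strand setting is given in the sources used here, so counts of overlapping and antisense genes are uncertain. Symbols came from a gene name table (60370 of 60683 identifiers) and GENCODE 29 (289). Exon lengths and coordinates are from GENCODE 29, with each exon base of a gene counted once over all its transcripts. Genes kept by filterByExpr (15321) were compared with edgeR 4.0.16 (R 4.3.3): TMM factors, robust quasi-likelihood F test, no replicate term, Benjamini-Hochberg adjustment over all tested genes, threshold 0.05. The script was tested on simulated counts. No pair of replicates agreed within sampling noise (3.59 to 5.8 times that noise, as chi-square over its degrees of freedom).

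The genes and family lists were chosen with earlier results of these data known. Named genes were the 9 members, the called genes of each list, the 5 genes nearest CA9 in profile, and ATF4; others were named after their values were seen. DESeq2 1.42.0 and limma 3.58.1 (voom) were alternatives, beside other scalings and filters, a replicate block, removal of the neighbours' median and leaving out each library. SLC26A10 was not matched and is not analysed here, and a few other listed genes that enter the counts are not reported here.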

Additional observations from a re-analysis of the deposited data

How the results depend on the processing

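Over 14 alternatives for each of the 8 tested genes of the group, 109 of 112 log2 fold changes moved by less than the spread between replicates (the SDs of both groups combined, log2 scale), and none changed direction; CA9 (2.44) and SLC16A3 (0.17) moved with the neighbours' median removed, and SLC4A2 (-0.002) with total counts as the only scaling. Of the 94 other listed genes of pH regulation, lactate handling and HIF, 5 to 11 were higher and 13 to 18 lower. The genes tested differed between settings. DESeq2 and the fit with no filter on low counts also called SLC26A7 higher, which is not among the 51 genes tested in the main fit. The lowest count, 5 higher genes, came from the filter of at least 1 CPM in all 6 libraries, under which low genes such as SLC9A2 and ASIC2 were not tested. Among called genes of the lists, 320 of 346 values kept their call, and 2 turned direction with the neighbours' median removed: CA5B at 0.0269 and SLC9A8 at 0.0063. The difference in the CA9 share of carbonic anhydrase transcripts was 37.4 percentage points per kilobase and 31.7 in plain CPM, where long transcripts weigh more. Over all genes, 2590 to 3807 were higher and 2780 to 3264 lower. Libraries with the same replicate number did not deviate together (correlations of -0.0277, 0.0063 and -0.0155). This cannot tell whether libraries of the same number were prepared together, which the labels do not say. With a replicate block, 3224 genes were higher and 3181 lower. Depth limits CA8, with at most 4 counts.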
